A study of Mus musculus with 12 samples.

Results

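The clustered protocadherin genes were examined in H4K12ac ChIP-Seq data from hippocampal neurons. They were taken as all genes on mouse chromosome 18 (GRCm38, GENCODE M21) whose symbol is Pcdh followed by a, b or g and a further letter or number. This rule gave 58 of 55413 annotated genes, of which 14 lie in the alpha, 22 in the beta and 22 in the gamma cluster. 2 records share the symbol *Pcdha11*, and both were kept.

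H4K12ac, acetylation of lysine 12 of histone H4, was mapped in neuronal nuclei that had been sorted from whole hippocampi of mice, 5 of them *Tip60* cKO and 5 of them controls, with 1 pooled input library per genotype. *Tip60* (*Kat5*) codes for a histone acetyltransferase. The *Tip60* cKO mice carried floxed *Tip60* alleles and the tamoxifen-inducible *CaMKCreERT2* driver, which is active in excitatory forebrain neurons, so other sorted neurons keep the gene. The control mice were littermates with floxed *Tip60* and no driver. Both genotypes received tamoxifen as young adults, and the study's timeline places the ChIP-Seq 10 days after the last injection. The labels give male C57BL/6J mice 3 months old, whereas the methods of the study describe animals of either sex on a C57BL/6N background. Each library is called a mouse below, but neither labels nor methods say that it holds 1 animal, and the p-values measure only the spread between these libraries. The question was whether the loss of TIP60 changes H4K12ac at these genes.

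Clustered protocadherins are cell adhesion molecules of the neuronal surface. In the alpha and gamma clusters each large alternate exon has a promoter of its own and is spliced to constant exons shared by the cluster, while each beta gene is a single coding exon. Single neurons choose a few of the alternate promoters, which carry a binding site for CTCF and are silenced by DNA methylation when not chosen, and the resulting combinations let a neuron tell its own processes from those of others. The C-type members at the ends of the alpha and gamma clusters (*Pcdhac1*, *Pcdhac2*, *Pcdhgc3*, *Pcdhgc4* and *Pcdhgc5*) are not chosen in this way and are used by most neurons.

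The libraries entered peak calling with 22864189 to 37923809 tags and gave 64245 to 136409 peaks each, the fewest of both in *Tip60* cKO mouse 5. The deposited lists hold peaks and no counts, so each transcription start site (TSS) was given a rank score. This score is the percent rank, among all annotated genes of a library, of the strongest peak by fold enrichment within 2 kb of the TSS, and it is 0 without a peak. Ranks within a library remove differences of scale, so a decrease of H4K12ac shared by most sites would leave the scores largely unchanged. The scores therefore compare a gene with the other genes of its library and do not measure the absolute level of the mark. As most windows have no peak, the lowest score of a window with a peak was 65.2 to 72.0, and a mean below that reflects mice without a peak. All 6 neuronal and all 4 excitatory marker genes had a peak at the TSS in all 10 lists. No TSS of an inhibitory or microglial marker did so, and *Gad1*, *Sst*, *Mog*, *Cx3cr1*, *Aif1*, *Csf1r* and *Tmem119* had none in any list, while *Mbp* and *Slc1a2*, markers of oligodendrocytes and astrocytes, had a peak in every list. Among the other markers *P2ry12* of microglia had a peak in 4 control mice and 1 *Tip60* cKO mouse (unadjusted p = 0.0482, adjusted p = 0.419 in limma), *Pvalb* of inhibitory neurons in 3 control mice and no *Tip60* cKO mouse (0.0280 and 0.347), *Kdr* of vascular cells in 3 and 1, and *Gfap* of astrocytes in 5 and 4. In the opposite direction, *Slc32a1* of inhibitory neurons had a peak in 2 *Tip60* cKO mice and no control mouse, *Gja1* of astrocytes in 2 and 1, and *Gad2*, *Flt1* and *Cldn5* each in 1 *Tip60* cKO mouse alone. The mean score over the neuronal markers was 81.8 to 87.8 in *Tip60* cKO mice and 88.1 to 90.4 in control mice. Over the excitatory markers it was 83.4 to 89.5 and 84.5 to 90.1. Among these genes *Syt1* was lower in *Tip60* cKO mice (−6.51, unadjusted p = 0.0146, adjusted p = 0.314 in limma), whereas *Camk2a* was higher (7.31, 0.0179 and 0.344). The part of other cell types in the results was not tested.

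Most clustered protocadherin promoters had no H4K12ac peak in either genotype. No list contained a peak within 2 kb of the TSS for 52 of the 58 members, or 89.7%. Over all protein-coding genes, 34.7% of 21938 TSSs were without a peak in every list. In the beta cluster this was so for 22 of 22 members, among the alpha members other than the C-type for 12 of 12, and among the gamma members other than the C-type for 18 of 19. The exception was *Pcdhga12*, the last of the alternate gamma A genes. Each of the 5 C-type members had a peak in at least 1 list, but only *Pcdhac2* and *Pcdhgc5* had one in all 10 lists, as did 44.0% of protein-coding TSSs. Because the nuclei of many cells were pooled, fewer nuclei with the mark and less of the mark in each nucleus cannot be told apart.

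**Figure D1:**
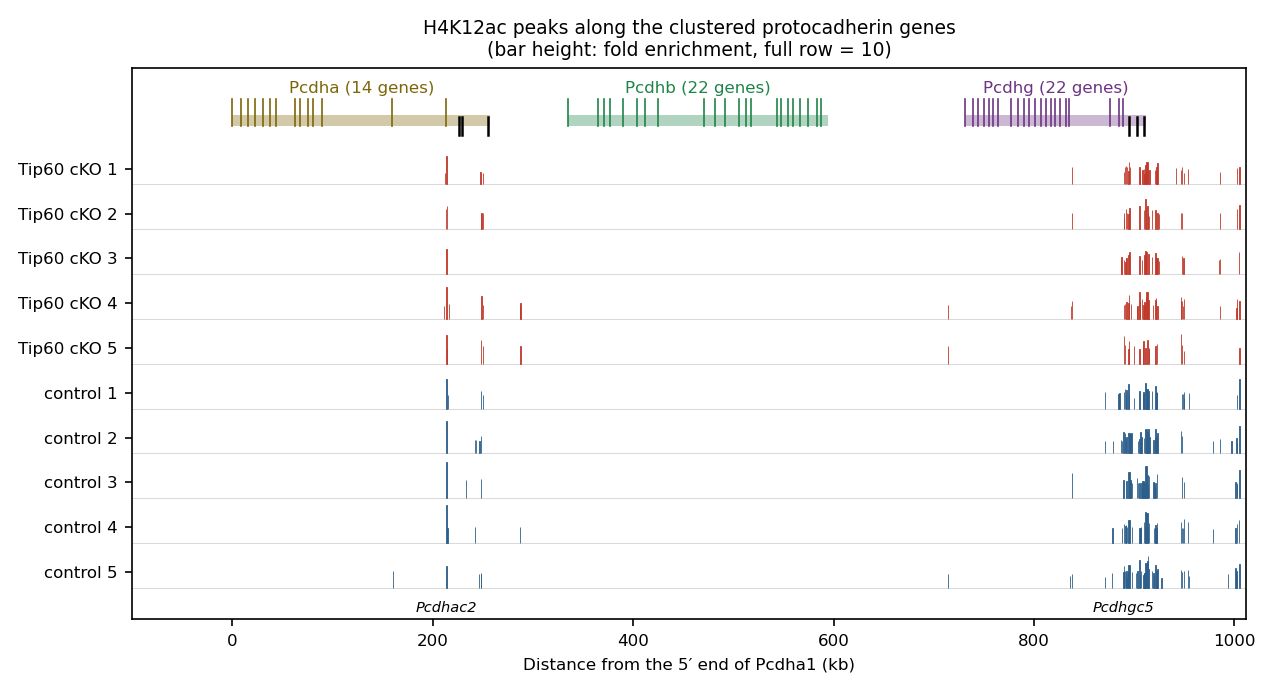
Peaks of the 10 lists from 100 kb before the alpha to 100 kb after the gamma cluster. The x axis is the distance from the 5′ end of *Pcdha1* in kb, each row is a mouse (*Tip60* cKO in red, control in blue), each bar is a peak and its height is the fold enrichment. Coloured ticks at the top are TSSs and black ticks constant exons. All 10 rows hold peaks at *Pcdhac2* and from *Pcdhgc5* onwards, and no row holds a peak in the beta array.

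Where windows overlapped they were counted once, which left 57 windows. The *Tip60* cKO mice had a peak in 2, 2, 3, 3 and 2 of these, and the control mice in 3, 2, 2, 3 and 5. The means were 2.40 ± 0.548 and 3.00 ± 1.22 windows (SD, n = 5 each), so the genotypes overlapped. Control mouse 5 had the most, and it alone had a peak at *Pcdhac1*. Within lane 7, with 3 mice per genotype, the difference was 0, and within lane 8, with 2 mice per genotype, it was −1.50 windows. For comparison, single lists had a peak at 3.45 to 8.62% of the member TSSs. Of all protein-coding TSSs they had one at 49.99 to 58.1%, the lowest share in *Tip60* cKO mouse 5.

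Stretches without a peak in any list spanned whole arrays. From 37217880 to 37644375 on chromosome 18 no list contained a peak, over 426 kb that hold the TSSs of all 22 beta genes and of *Slc25a2* and *Taf7*. A further stretch of 296 kb, from 36794508 to 37090084, held the TSSs of 13 alpha members, that is, all but *Pcdhac2*. Another, 121 kb from 37644638 to 37766057, held 19 gamma TSSs. Of 255698 stretches between neighbouring peaks on the autosomes, 584 were at least as long as the first, and 35 of those contained 20 or more protein-coding TSSs. The stretch with the most, 224, opens with the olfactory receptor genes *Olfr994* and *Olfr995*. The distance from a TSS to the nearest peak of any list had a median of 119368 bp for the alpha members other than the C-type, of 143748 bp for the beta members and of 29670 bp for the gamma members other than the C-type.

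Near-identical copies could lose reads, and so the sequence of the windows was checked. Of the words of 50 bases, the length of the tags, 91.2% occurred once in the genome in the median alpha window (83.5 to 100%), 97.3% in the median beta window (86.8 to 100%) and 98.1% in the median gamma window (85.8 to 100%). For non-clustered protocadherins the median was 100%. Over the whole segment of the alpha alternate exons the share was 76.7%, and over the beta array 87.6%. The part of the repeated words in the missing peaks was not tested. The ratio of observed to expected CpG dinucleotides in the central 1 kb had a median of 0.682 in alpha, 0.378 in beta, 0.612 in gamma and 0.665 in non-clustered protocadherins. *Pcdhgc5*, which had a peak in every list, had a ratio of 0.233, the lowest among the gamma members, and *Pcdhgc3*, with a peak in 2 lists, one of 0.797.

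*Pcdhac2* (ENSMUSG00000102697.1, chromosome 18, 37143503 to 37187657, plus strand) carried the strongest peak of the clusters in 8 of the 10 mice, and this peak did not separate the genotypes. The fold enrichment of ChIP over background, the deposited value of the authors, was 6.37, 5.29, 5.70, 7.16 and 6.30 in *Tip60* cKO mice 1 to 5. In control mice 1 to 5 it was 6.56, 7.31, 8.17, 8.42 and 4.77. Control mice 2, 3 and 4 lay above every *Tip60* cKO mouse and control mouse 5 lay below all of them. The summit of the strongest peak was 357 to 644 bp downstream of the TSS in every list, within the first exon, which codes for the extracellular domain. Rank scores were 91.5 ± 3.45 in *Tip60* cKO mice and 90.8 ± 7.05 in the controls (SD, n = 5 each). The difference of 0.63 (SE 3.54) had an adjusted p-value of 0.994 in limma (Benjamini-Hochberg over 21672 TSS windows). A two-sided exact permutation test gave an unadjusted p-value of 0.881. Over all windows, 0.157% were called lower and 0.0784% higher at an adjusted p-value below 0.05. The strongest peak at *Pcdhac2* was 371 to 1436 bp long in *Tip60* cKO mice and 973 to 1462 bp in the controls. In 4 *Tip60* cKO and 2 control mice the window held a second, weaker peak, and all peaks together covered 25.5 ± 9.85% and 33.4 ± 6.58% of the 4 kb window.

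At *Pcdhgc5* (ENSMUSG00000102543.5, 37819513 to 37841873, plus strand), the last C-type exon of the gamma cluster, the peaks were weaker and more scattered. The strongest peak in the window had a fold enrichment of 3.90, 3.60, 3.73, 3.36 and 6.15 in *Tip60* cKO mice 1 to 5 and of 4.45, 4.80, 3.99, 4.33 and 4.91 in control mice 1 to 5. *Tip60* cKO mouse 5 stood above all other mice, and the other 4 *Tip60* cKO mice lay below all controls. The rank scores followed the same order within *Tip60* cKO mice, with 70.3 to 74.7 in 4 mice and 93.9 in mouse 5. In control mice they ranged from 73.2 to 80.3. The means of 77.3 ± 9.45 and 77.5 ± 2.82 (SD, n = 5 each) gave a difference of −0.23 (SE 4.33; adjusted p = 1 in limma; exact permutation p = 0.992), which was −4.38 without *Tip60* cKO mouse 5. Peaks covered 12.9, 12.7, 19.3, 12.0 and 27.2% of the window in *Tip60* cKO mice 1 to 5 and 27.02, 41.7, 22.6, 22.3 and 39.7% in control mice 1 to 5. Mouse 5 was again the highest of its genotype, although its library was the shallowest.

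**Figure D2:**
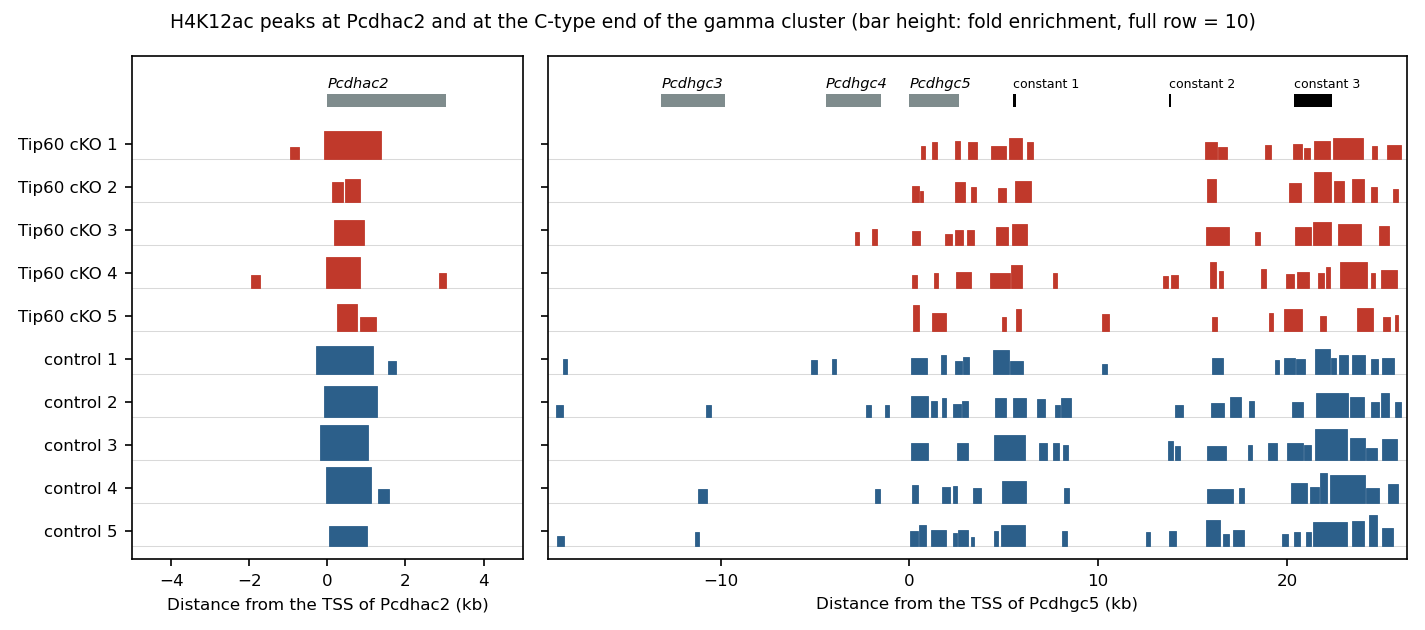
Peaks around *Pcdhac2* (left) and from *Pcdhgc3* to the end of the gamma cluster (right). The x axes give the distance from the TSS of *Pcdhac2* or *Pcdhgc5* in kb, each row is a mouse, and the height of a bar is the fold enrichment of that peak. Grey boxes are first exons and black boxes constant exons. The summits of the strongest peaks at *Pcdhac2* lie 357 to 644 bp after the TSS in all 10 mice. Peaks at *Pcdhgc3* and *Pcdhgc4* are present in few mice.

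The other C-type members and *Pcdhga12* had peaks in few mice. *Pcdhac1* had a peak in control mouse 5 alone, with a rank score of 72.6, and was therefore not tested. *Pcdhgc3* had no peak in *Tip60* cKO mice and one in control mice 4 and 5, with rank scores of 70.2 and 69.6. The difference was −28.0 (SE 16.1; adjusted p = 0.503 in limma; exact permutation p = 0.444, n = 5 each). In lane 8 alone, where these are the only controls, limma called it lower with an adjusted p-value of 0.00534. In that fit 930 of all 18705 windows tested were called. With a window of 1 kb, or with the same number of strongest peaks per list, *Pcdhgc3* had no peak in any mouse. *Pcdhgc4* had a peak in 1 mouse of each genotype, *Tip60* cKO mouse 3 (69.6) and control mouse 1 (70.9). *Pcdhga12* likewise had one in *Tip60* cKO mouse 4 (68.0) and in control mouse 5 (66.0). In total 5 members had a peak in at least 2 lists and entered the test, none was called and none had an unadjusted p-value below 0.05, which 11.8% of all windows had. No member had a peak in at least 4 more lists of one genotype than of the other, as 1.25% of all windows did.

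**Figure D3:**
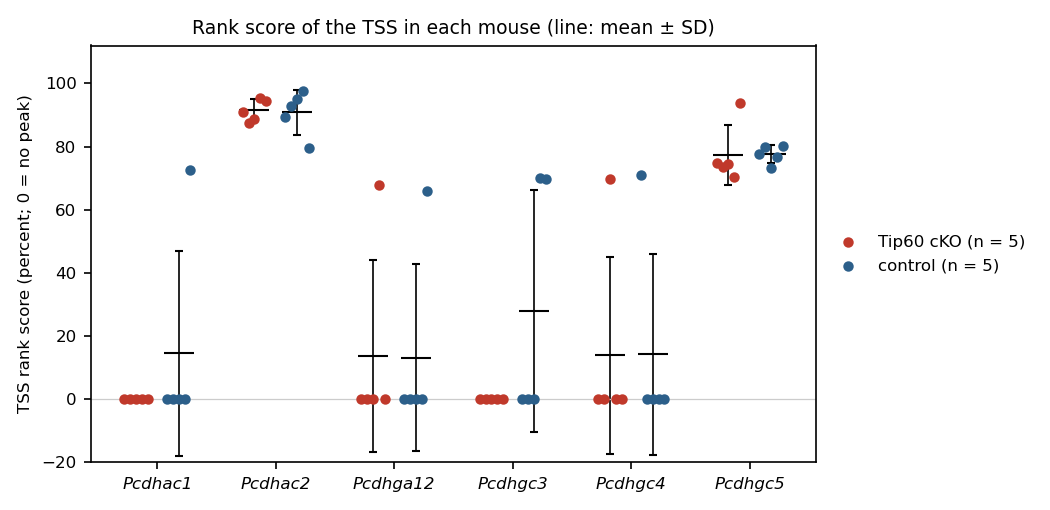
TSS rank score (y axis, percent, 0 without a peak) of the 6 members with a peak in any list. Each point is a mouse, *Tip60* cKO in red and control in blue, and the lines are the mean ± SD. *Pcdhac2* lies between 79.5 and 97.6 in all mice, *Pcdhgc5* between 70.3 and 93.9, and the remaining 4 members are at 0 in most mice.

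Peaks away from the promoters were compared as consensus regions, that is, merged peaks present in at least 2 lists. From the first alpha to the last gamma exon there were 25 such regions. Of these, 15 lay in the segments of the C-type or constant exons of the gamma cluster, introns included. None of the 25 was called by limma, where 0.475% of all 144701 regions were called lower and 0.0864% higher. The mean rank score was lower in *Tip60* cKO mice in 15 and higher in 10, with a median difference of −2.85, compared with −2.21 over all regions. Peaks in all 10 lists were found in 5 of the 25 regions, and in 16.4% of all regions.

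These 5 regions were also the ones with the highest rank scores in control mice. The region over *Pcdhac2* (37143209 to 37145269) scored 96.2 ± 1.95 in *Tip60* cKO mice and 95.6 ± 4.90 in the controls (SD, n = 5 each). A region of 6.3 kb over the last constant gamma exon and the 3′ end of *Diaph1* (37839267 to 37845577) scored 94.3 ± 3.11 and 95.5 ± 2.38. *Diaph1* codes for an actin-nucleating formin and is read from the opposite strand, so the peaks cannot be given to one gene. The region over the first constant gamma exon (37823801 to 37826040) scored 91.6 ± 1.63 and 90.3 ± 3.17. It also holds the TSS of the transcript *Gm38182*, on the plus strand, so its peaks cannot be given to one gene either. The region in the intron before the last constant exon (37835174 to 37837253) scored 84.4 ± 9.88 and 77.9 ± 13.8. Differences in these 4 regions were within the SD of the mice, with adjusted p-values of 0.814 to 1 in limma. The region just after the TSS of *Pcdhgc5* (37819543 to 37820474) scored 48.8, 72.8, 58.8, 58.9 and 97.4 in *Tip60* cKO mice 1 to 5 and 73.1, 88.5, 76.5, 84.2 and 88.2 in control mice 1 to 5. Here 4 *Tip60* cKO mice were below all controls and mouse 5 above them, and the difference of −14.8 (SE 9.37; adjusted p = 0.428 in limma) became −22.3 without mouse 5. It was −40.2 (adjusted p = 0.374) with the same number of strongest peaks per list and −7.20 (adjusted p = 0.880) when peaks were ranked by pileup.

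An unadjusted p-value below 0.05 was reached by 4 of the 25 regions, and by 12.0% of all regions. The largest difference was in the first gamma intron between constant exons, 8.3 kb after the TSS of *Pcdhgc5* (37827526 to 37828055). No *Tip60* cKO mouse had a peak there, control mouse 1 had none either, and control mice 2 to 5 scored 85.5, 62.5, 71.7 and 67.0. The difference was −57.4 (SE 14.2; adjusted p = 0.147 in limma). Without control mouse 1, the only control without a peak, it was −71.7 with an adjusted p-value of 0.000925 in limma, which depends on the choice of that mouse. With the same number of strongest peaks per list the difference was −35.6 (adjusted p = 0.295). This region was the only one of the 25 with a peak in at least 4 more control lists, as were 2.27% of all regions. None had a peak in at least 4 more *Tip60* cKO lists, as 0.498% of all regions did. Lower values were also seen 5.3 kb before (37800812 to 37801393; −31.2, SE 13.2) and 2.2 kb after (37808134 to 37808983; −34.9, SE 13.95) the TSS of *Pcdhgc3*, each with a peak in 3 control mice and in no *Tip60* cKO mouse. The adjusted p-values were 0.361 and 0.351. In the opposite direction, a region in the alpha intron before the last constant exon (37179913 to 37180594) had a peak in *Tip60* cKO mice 1, 2, 4 and 5 and in control mouse 1, with a difference of 42.3 (SE 16.8; adjusted p = 0.351).

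Peak coverage was next compared along the clusters. No base of the alpha alternate exons, the beta array or the 100 kb before *Pcdha1* lay in a peak in any mouse. From the alpha start to the gamma end, peaks covered 0.840 ± 0.198% of the bases in *Tip60* cKO mice and 1.16 ± 0.138% in the controls (SD, n = 5 each), compared with 1.66 ± 0.492% and 2.08 ± 0.370% of chromosome 18. Coverage in the alpha cluster was 0.630 ± 0.255% and 0.830 ± 0.166%, and the genotypes overlapped. In the gamma cluster it was 3.65, 2.79, 3.75, 3.89 and 2.05% in *Tip60* cKO mice 1 to 5 and 3.89, 5.05, 4.90, 3.94 and 5.23% in control mice 1 to 5. Every *Tip60* cKO mouse thus lay below every control, by a narrow margin, as peaks covered 7000 bases in *Tip60* cKO mouse 4 and 7007 bases in control mouse 1. The difference of −1.38 percentage points came from the segments of the C-type exons (10.1 ± 2.79% and 15.2 ± 2.41%) and of the constant exons (20.1 ± 4.30% and 28.3 ± 5.51%). In both segments the genotypes overlapped. These segments span 20657 and 16853 bp and include the sequence between the exons. The constant gamma exons themselves are 59, 89 and 1971 bp long, so the values are not coverage of exons alone.

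The lists of *Tip60* cKO mice also covered less of the genome as a whole, 1.61 ± 0.514% against 2.07 ± 0.391%. Relative to the genome coverage of the same list, coverage of the gamma cluster was 2.08 ± 0.403 in *Tip60* cKO mice and 2.27 ± 0.363 in the controls, with ranges of 1.67 to 2.55 and 1.79 to 2.71. For the alpha cluster the ratios were 0.431 ± 0.210 and 0.405 ± 0.0555. With the 64245 strongest peaks of each list, the difference in gamma coverage was −0.62 percentage points. No test was made of these coverages. The local background that was used for calling was at the genome-wide level at the median peak of the segments of the C-type and constant gamma exons in both genotypes. The same held at *Pcdhac2* in every mouse. At the strongest peak of *Pcdhgc5* the background was 1.10 ± 0.196 times that level in *Tip60* cKO mice and 1.12 ± 0.0931 times in the controls.

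**Figure D4:**
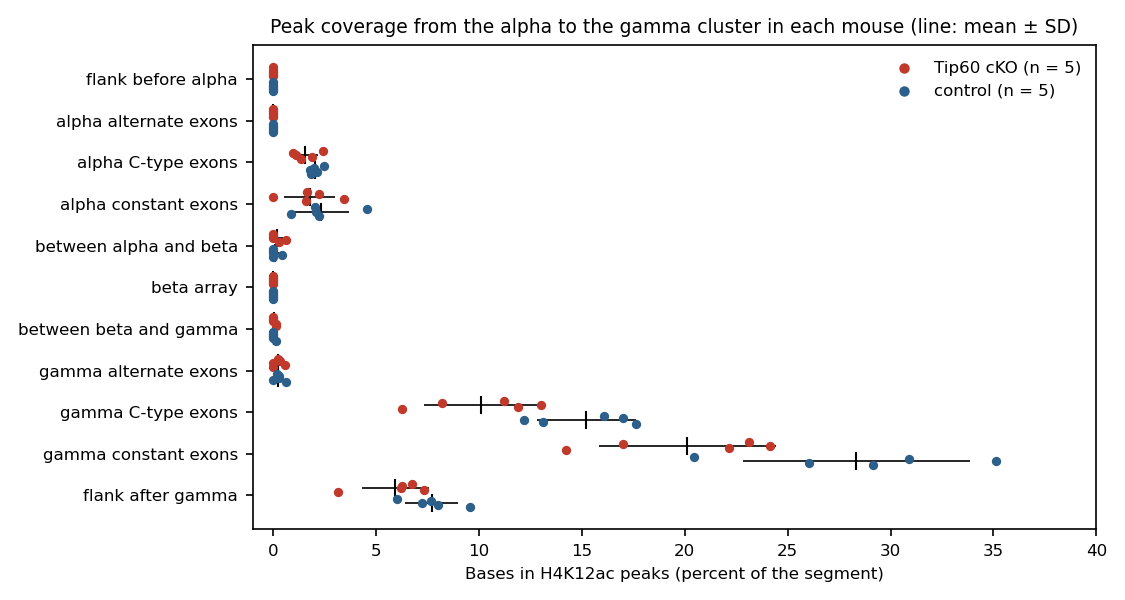
Share of bases in H4K12ac peaks (x axis, percent) for successive segments from the alpha to the gamma cluster. Each point is a mouse (*Tip60* cKO in red, control in blue) and the lines are the mean ± SD. The segments of the gamma C-type and constant exons, which include introns, reach 6.27 to 35.1%, and the beta array is at 0 in all 10 mice.

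The non-clustered protocadherins, which are coded by separate genes elsewhere in the genome, were set beside the clusters. Of these 12 genes, 6 had a peak at the TSS in all 10 lists and 2, *Pcdh11x* and *Pcdh18*, in none. Of 9 genes tested none was called, 5 had a lower and 4 a higher mean, and the median difference was −0.28, as against −0.69 over all windows. *Pcdh19*, which takes part in cell adhesion together with cadherins and is mutated in an epilepsy of females, had no peak in *Tip60* cKO mice and scored 66.8, 66.7, 69.3, 71.7 and 0 in control mice 1 to 5. The difference was −54.9 (SE 12.9; adjusted p = 0.112 in limma). Control mouse 5 was the only control without a peak, so leaving it out sets a peak in every control against none in *Tip60* cKO mice. The difference was then −68.6 with an adjusted p-value of 2.06e-07 in limma, which depends on the choice of that mouse. With peaks of q below 0.01 in all mice the difference was −41.5 (adjusted p = 0.347), and with a window of 1 kb −43.1 (adjusted p = 0.357). *Pcdh8*, an activity-regulated protocadherin of synapses, had a peak in every mouse and scored 86.2 to 93.1 in *Tip60* cKO mice and 93.7 to 98.3 in the controls. The groups did not overlap in this direction, as for 1.62% of all windows, and the adjusted p-value was 0.314. *Pcdh15* (16.6, adjusted p = 0.651) had a peak in every mouse other than control mouse 5, without which the difference was 1.72. *Pcdh17* (−16.1, adjusted p = 0.805) had one in every mouse other than *Tip60* cKO mice 2 and 4 and control mouse 4, and the difference was −31.3 to −5.01 without single mice. *Pcdh1*, 344 kb beyond the gamma cluster on the same chromosome, scored 97.0 ± 2.38 and 94.6 ± 3.13.

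**Figure D5:**
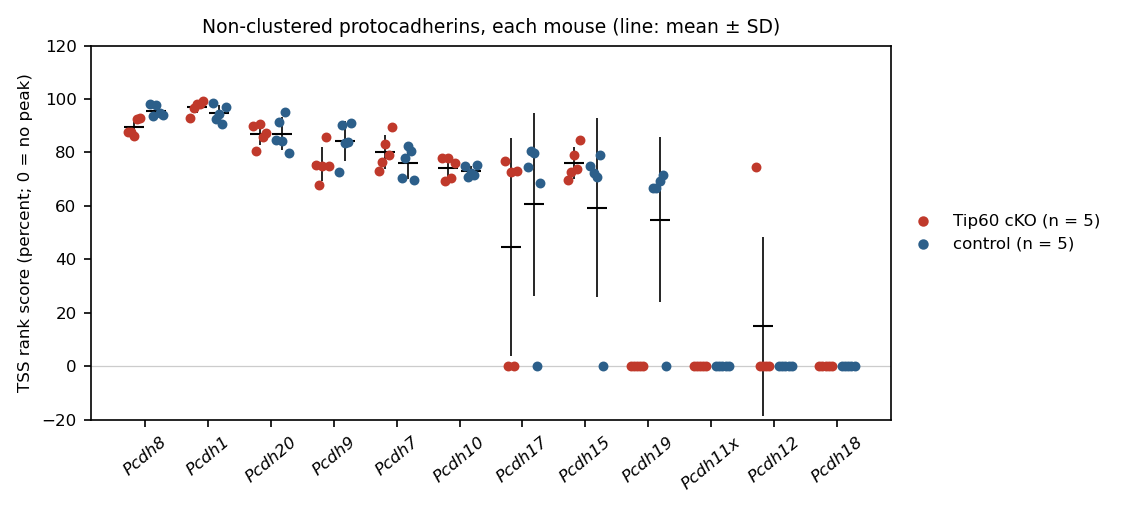
TSS rank score (y axis, percent, 0 without a peak) of the 12 non-clustered protocadherins, ordered by the control mean. Points are mice, *Tip60* cKO in red and control in blue, and lines are the mean ± SD. *Pcdh19* is at 0 in all *Tip60* cKO mice and above 66.0 in 4 of 5 control mice.

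Genes whose products act on the clusters or downstream of them had peaks in most mice and were not called either. Among 21 chromatin regulators, 15 had a peak in all lists, 16 were tested, 8 means were lower and 8 higher, and the median difference was 0.19. *Ctcf*, whose product binds the alternate promoters, scored 94.2 ± 3.06 in *Tip60* cKO mice and 96.7 ± 1.37 in the controls (adjusted p = 0.611 in limma). Among the genes tested the largest differences were at *Rest*, a repressor of neuronal genes (13.6, adjusted p = 0.732) that was at 0 in control mouse 5 and scored 70.2 to 82.9 in the other controls and 69.2 to 84.6 in *Tip60* cKO mice, at *Pds5a*, a cohesin-associated factor (−9.22, SE 3.28, adjusted p = 0.347), and at *Hdac3*, a histone deacetylase whose gene lies within 200 kb of the gamma cluster (6.998, SE 3.43, adjusted p = 0.482). All 13 signalling partners had a peak in all lists, with a median difference of −0.54. The largest were at *Ptk2b* (−5.42), a relative of focal adhesion kinase that protocadherins bind, at *Abi1* (−5.30), a subunit of the WAVE actin regulatory complex, and at *Fyn* (−4.91), a Src family kinase, with adjusted p-values of 0.475 to 0.527.

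Of 48 other genes inside or within 200 kb of the clusters, 22 had a peak in at least 2 lists, and none of these was called (12 lower, 10 higher, median difference −3.14), where 55.6% of all windows tested had a lower mean. The pairs *Ndufa2* and *Ik*, *Hars* and *Hars2*, and *Hdac3* and *Rell2* share their strongest peak, and thus their scores, in every list, and *Hdac3* is also among the chromatin regulators. *Wdr55*, before the alpha cluster, had a peak in 5 control and 2 *Tip60* cKO mice (−45.1, SE 16.4; adjusted p = 0.347 in limma). The antisense transcripts *BC037039*, which starts inside *Pcdhgc3* (−41.3, SE 15.8), and *Gm38097*, in the alpha intron before the last constant exon (−27.9, SE 16.04), had peaks in 3 and in 2 control mice and in no *Tip60* cKO mouse, with adjusted p-values of 0.347 and 0.503. The peaks at *BC037039* in control mice 2, 4 and 5 are those of the region 2.2 kb after the TSS of *Pcdhgc3*, and those of mice 4 and 5 are also the peaks of *Pcdhgc3* itself, so these 3 differences are not separate results. *Taf7*, a general transcription factor gene between the beta and gamma clusters, had a peak in *Tip60* cKO mice 4 and 5 and in control mouse 5.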

How the data were processed

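H4K12ac ChIP-Seq reads were mapped by the authors to mm10 with STAR, PCR duplicates were removed with SAMtools, and MACS 2.1.0.20140616 called peaks for each library (q 0.1), using the pooled input of the genotype as background. How reads with several matches were treated is not given in the sources used here. The deposited lists give, for each peak, the pileup as a coverage signal, the fold enrichment as a ratio over local background, and p-values and q-values as −log10. They hold no counts per region, so no counting error could be given. Sequencing lanes (7 and 8) were read from the file headers.

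TSSs were the 5′ ends of GENCODE M21 genes, mitochondrial genes left out. Rank scores of windows and consensus regions (144701 of 257154 merged regions) were compared with limma 3.58.1 in R 4.3.3, without covariates, on features with a peak in at least 2 lists. The step was tested on simulated data, the outcome of which is not reported here. Local background was (pileup + 1)/fold enrichment − 1, divided by its lowest value in the library. Words of 50 bases were counted in the GRCm38 chromosomes with Python 3.11.15.

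Named members were the C-type genes, the 3 per cluster with the highest control score or the largest difference (all beta members tied at 0), and any that was called, in addition to called regions and the 5 highest. From each comparison list the called genes and the 3 with the largest difference were named. Regions with an unadjusted p-value below 0.05, *Ctcf*, *Pcdh8*, *Pcdh1*, *Taf7* and the single markers given were chosen after their values were seen. Members, lists and tests were chosen with earlier results of these data known. Alternatives were other peak sets, windows, ranks, filters and covariates, and each mouse left out. No sequence of the clusters is reported here.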

Additional observations from a re-analysis of the deposited data

Results flagged for a closer look

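In 10 of 36 groups of 5 mice 1 mouse stood apart from the other 4. For continuous values chance gives about 1 in 20 groups, but that rate does not apply to most of these, since a gene with a peak in a single mouse of a genotype, and 0 in the others, always meets the criterion. Such were *Pcdhac1* in control mouse 5 (rank score 72.6), *Pcdhga12* in *Tip60* cKO mouse 4 (68.0) and control mouse 5 (66.0), *Pcdhgc4* in *Tip60* cKO mouse 3 (69.6) and control mouse 1 (70.9), and *Pcdh12* in *Tip60* cKO mouse 1 (74.7), with 0 in the other 4 mice of the same group. Conversely, *Pcdh15* and *Pcdh19* were at 0 in control mouse 5 and *Pcdh17* was at 0 in control mouse 4, while the other controls scored at least 66.7. At *Pcdhgc5*, *Tip60* cKO mouse 5 scored 93.9 and the other 4 scored 70.3 to 74.7.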

How the results depend on the processing

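No counts underlie these scores, differences at windows without a peak in every list rest on whether a peak was called, and the shallowest library had the fewest peaks. The number of members without a peak in any list was 52 to 55 under all alternatives. No clustered protocadherin TSS was called in any fit other than *Pcdhgc3* in lane 8 alone (1 of 4 tested), and the number was 0 without any single mouse. Of the cluster regions, 0 to 1 was called when single mice were left out (the 1 without control mouse 1), and 1 met the rule of a peak in at least 4 more lists. Over all TSS windows 51 were called, and 86 with trend and robust, 232 in lane 7 alone, 930 in lane 8 alone, 270 by that rule, and 57 to 101 without single mice. Over all regions 812 were called, and 261 with the replicate block, 317 with trend and robust, 4002 by that rule, and 929 to 1407 without single mice. The cause was not tested.

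The sign of small differences changed. That of *Pcdhac2* was −3.26 in lane 7, 6.47 in lane 8 and −2.21 to 2.32 without single mice. That of *Pcdhgc5* was 1.82 by pileup, 3.54 in lane 8 and −4.38 to 1.54 without single mice, that of *Pcdhga12* −2.90 to 3.79 and that of *Pcdhgc4* −3.82 to 3.21. With any transcript start the differences were 14.5 at *Pcdhga12* and −13.4 at *Pcdhgc4*. *Pcdh17* changed to 6.91 with any transcript start and 2.19 in lane 8. The *Pcdhac2* region ranged from −1.52 to 1.51 without single mice, and that over the last constant gamma exon changed to 0.62 by pileup. *Pcdh19* was called in lane 7 alone (adjusted p = 7.75e-05 in limma) and without control mouse 5, that is, in fits in which every control had a peak. Coverage of the alpha cluster differed by −0.35 percentage points in lane 7, 0.0241 in lane 8 and −0.27 to −0.12 without single mice, that of the gamma cluster by −0.62 with equal numbers of peaks and −1.56 to −1.08 without single mice.

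A fit to all windows without a filter could not be made, since most are 0 in every library, so a fit to windows in which any list had a peak took its place, an alternative chosen after seeing the data, as was the search for members without a peak at any transcript start. Same-numbered mice of both genotypes share a number and a sequencing lane, and whether they were paired in another way is not known. Correlations of their deviations were −0.0375 to 0.0552. The best-matching control had the same number for *Tip60* cKO mice 1, 2 and 4 and another number for mice 3 and 5. These correlations cannot decide whether the mice were paired. With the replicate block no member and no cluster region was called.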
